A study of Arabidopsis thaliana with 8 samples.

Results

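The genes described here are 44 nuclear genes of Arabidopsis thaliana whose level per length was at least 4 times as high in RNA digested with RNase R as in undigested RNA, in both genotypes of the study. They were chosen by their measured values, as loci on the 5 nuclear chromosomes that carry 1 gene name used once in the table and whose log2((mean FPKM with RNase R + 1)/(mean FPKM without + 1)), called enrichment here, was at least 2 in dbr1-2 and in Col-0. FPKM is the number of fragments of a locus per unit of transcript length and of library size. The 44 genes were 0.143% of the 30685 loci to which the rule could be applied, in a table of 32232 loci. Since the contrast of RNase R against none chose them, their enrichment is described without a test.

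Ribosomal RNA-depleted RNA of inflorescences, all in the Columbia background, was sequenced in 8 libraries that form 4 groups of 2. The groups were the mutant dbr1-2 with RNase R, wild-type Col-0 with RNase R, dbr1-2 without RNase R and Col-0 without RNase R. By their tags, mRNA was depleted as well in every library except dbr1-2 with RNase R replicate 1. Whether that library was in fact prepared differently is not known, so levels of mRNA in it may not be comparable with the rest. Plants had been kept at 22 °C in days of 16 h light and 8 h dark, and digestion with RNase R lasted 2 h at 37 °C. Nothing in the labels says that the 2 libraries of a group are separate biological samples, and the tags hold a single code for each genotype, so p-values may measure technical spread only.

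The exonuclease RNase R digests linear RNA and leaves lariats and circular RNA behind. A lariat is the branched loop in which splicing releases an intron, and DBR1 encodes the debranching enzyme that opens this loop. The spliceosome that forms lariats is built on small nuclear RNAs (U snRNAs), of which U1 pairs with the start of the intron, U2 with its branchpoint, and U4 escorts U6 into the complex. 7SL RNA is the RNA of the signal recognition particle, which brings ribosomes making secreted proteins to the endoplasmic reticulum. Both U snRNAs and 7SL RNA are short and strongly folded.

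All 44 genes lie on nuclear chromosomes, but several share their interval with another RNA gene, and the table does not show which RNA gave the reads. For 9 genes a U snRNA gene lay in the same interval, and for 6 the interval held a stretch similar to AT1G15405, a non-coding RNA whose sequence resembles that of the locus annotated as 7SL RNA1. These 2 groups are called U snRNA-bearing and 7SL-like below. The remaining 29 held neither. Of the 13286 single-name nuclear loci tested, 7 had an interval with such a stretch, the 6 members included. This grouping was made after the values were seen. By annotation, 37 of the 44 were protein-coding (84.1%, against 98% of the single-name nuclear loci tested). Of the others, 3 were snRNA genes (of 5 tested) and 2 non-coding RNAs (of 47). The last 2 were 1 snoRNA (of 12) and 1 long non-coding RNA (of 78). They lay on all 5 chromosomes, 13 on chromosome 1, 9 on chromosome 2, 6 each on chromosomes 3 and 4, and 10 on chromosome 5.

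The sequences of U1.5 and U4.2 are shown because both are short non-coding RNAs that are members under their own names. They were taken from the RefSeq genome (TAIR10.1, whose nuclear sequence is that of TAIR10) by annotated or matched coordinates and written 5′ to 3′ on the strand given. In U1.5 (chr1:2538074-2538238, minus strand) the capitals mark ACTTACCTG, which pairs with 5′ splice sites, and U4.2 (chr3:2178191-2178343, minus strand) has no part marked. U1.5 is the highest of all members.
U1.5: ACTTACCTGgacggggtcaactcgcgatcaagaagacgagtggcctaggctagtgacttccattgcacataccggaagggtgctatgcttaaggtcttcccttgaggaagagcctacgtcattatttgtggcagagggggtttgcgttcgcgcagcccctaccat
U4.2: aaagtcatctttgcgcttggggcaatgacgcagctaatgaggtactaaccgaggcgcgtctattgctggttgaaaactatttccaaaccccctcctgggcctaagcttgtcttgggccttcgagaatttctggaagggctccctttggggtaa
Searched on the strand of the gene, ACTTACCTG was found in 4 of 13 annotated U1 genes. Exact matches within the annotated bounds were counted, and in U1.5 the motif begins at the first annotated base. A gene annotated from a later base would thus not be counted.

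The 7SL-like stretches are shown because they tell the 6 genes of that group from the rest. In AT1G15405 (chr1:5297875-5298166, minus strand), in the stretch within AT7SL-1 (chr4:1318878-1319166, minus strand) and in that within AT2G31141 (chr2:13271857-13272151, minus strand) the capitals mark bases identical in the 4 long stretches aligned, which also include the one in BXL3 (chr5:3014941-3015235, plus strand).
AT1G15405: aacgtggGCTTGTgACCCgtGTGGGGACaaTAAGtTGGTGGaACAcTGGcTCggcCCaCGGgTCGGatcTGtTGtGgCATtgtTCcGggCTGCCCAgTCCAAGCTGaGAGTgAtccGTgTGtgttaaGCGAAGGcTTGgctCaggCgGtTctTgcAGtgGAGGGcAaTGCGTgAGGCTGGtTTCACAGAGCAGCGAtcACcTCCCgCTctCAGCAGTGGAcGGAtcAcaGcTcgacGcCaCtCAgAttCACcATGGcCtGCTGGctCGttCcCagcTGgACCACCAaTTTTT
AT7SL-1: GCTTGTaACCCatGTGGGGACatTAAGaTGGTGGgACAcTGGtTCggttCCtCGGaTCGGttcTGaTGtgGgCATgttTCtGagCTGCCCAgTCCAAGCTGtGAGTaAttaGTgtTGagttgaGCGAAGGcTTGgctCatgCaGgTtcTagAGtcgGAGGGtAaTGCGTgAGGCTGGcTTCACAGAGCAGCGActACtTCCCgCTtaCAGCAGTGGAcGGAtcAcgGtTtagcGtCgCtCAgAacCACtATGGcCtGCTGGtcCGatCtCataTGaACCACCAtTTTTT
AT2G31141: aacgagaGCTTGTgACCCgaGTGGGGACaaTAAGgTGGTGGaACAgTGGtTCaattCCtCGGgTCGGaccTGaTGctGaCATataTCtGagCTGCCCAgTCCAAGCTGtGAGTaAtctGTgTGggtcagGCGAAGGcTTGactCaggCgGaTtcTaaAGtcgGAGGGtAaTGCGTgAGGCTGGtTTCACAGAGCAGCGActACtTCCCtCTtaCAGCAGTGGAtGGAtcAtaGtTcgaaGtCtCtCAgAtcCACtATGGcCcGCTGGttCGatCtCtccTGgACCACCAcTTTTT
Of 297 alignment columns, 192 were identical in all 4, and the longest identical run was 15 nt. Whether reads from 1 of these copies were placed at another was not tested, so the level at each of them remains uncertain.

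Enrichment over the 44 genes had a median of 3.88 in dbr1-2 and 3.20 in Col-0. It ranged from 2.02 to 6.85 in dbr1-2 and from 2.03 to 5.92 in Col-0. Over all 14351 loci that passed a filter of at least 1 FPKM in at least 2 libraries, the median was −0.69 in dbr1-2 and −0.66 in Col-0, so that the middle of the table lay below 0 and the 44 stood further from it than from 0. An enrichment of at least 2 was reached by 3.22% of those loci in dbr1-2 and by 1.85% in Col-0. All 44 passed the filter, which the rule makes certain. The 8 mRNAs listed as references, ACT2 and UBQ10 among them, held no member, and their median log2 fold change with RNase R was −1.07 in dbr1-2 and −0.97 in Col-0. They did not all fall. At an adjusted p under 0.05 in limma, 5 fell and UBC21 rose (0.51) in dbr1-2. In Col-0, 6 fell and EF1A rose (0.40), and TUA2 passed in neither genotype. The 7SL-like genes had the highest median enrichment, 4.90 in dbr1-2 and 5.18 in Col-0, followed by the U snRNA-bearing genes with 4.68 and 4.13. The other 29 had medians of 3.53 in dbr1-2 and 3.0 in Col-0. Enrichment in dbr1-2 exceeded that in Col-0 for 30 of the 44, by a median of 0.47, in values that the rule itself used.

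**Figure D1:**
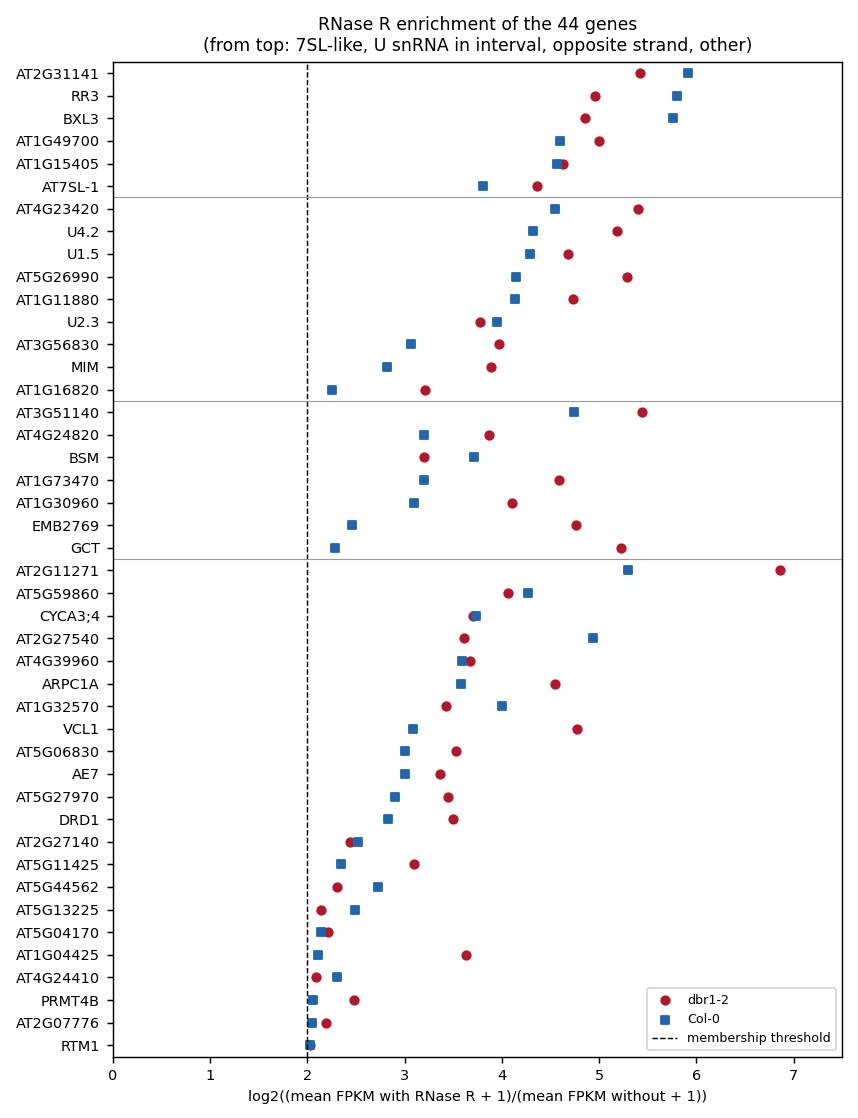
Log2 enrichment by RNase R (x axis) of each of the 44 genes (rows) in dbr1-2 (circles) and Col-0 (squares), from group means of 2 libraries, with the membership threshold of 2 as a dashed line. The 7SL-like genes form the top block, with Col-0 to the right of dbr1-2 for AT2G31141, RR3 and BXL3, and GCT shows a wide gap between 5.22 in dbr1-2 and 2.28 in Col-0.

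Genes close to the threshold show where the rule ends. RTM1, which encodes a jacalin-like lectin that restricts the movement of a potyvirus, stood just inside it with an enrichment of 2.02 in dbr1-2 and 2.03 in Col-0. AT2G07776 was next, at 2.19 in dbr1-2 and 2.05 in Col-0. AT1G06450 stood just outside, at 2.2 in dbr1-2 and 1.99 in Col-0, and AT5G01715 was also outside, at 3.50 in dbr1-2 but 1.98 in Col-0.

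Values of exactly 0 need care. Of the 44 genes, 4 had a 0 in at least 1 library. AT1G15405 had 396224 and 417623 FPKM in dbr1-2, against 0 and 934126 in Col-0 with RNase R. The 0 stands beside the second-highest level of any member, so it may be a failed estimate, and no fold between genotypes is given for this gene. AT2G27540, an F-box-associated gene of a single exon, was listed at 0 in dbr1-2 replicate 1 and in Col-0 replicate 2 with RNase R, at 22.5 FPKM and 59.2 FPKM in the other libraries of those groups, and at 0 in all 4 libraries without it. Its membership thus rested on 1 library per genotype. AT2G11271, a single-exon gene of unknown product, was listed at 0 in both dbr1-2 libraries and in replicate 1 of Col-0 without RNase R. BSM was listed at 0 in 1 Col-0 library without RNase R. AT1G30960 is not among these 4, but in Col-0 without RNase R it had 0.225 FPKM in replicate 1 and 1.21e-25, in effect 0, in replicate 2.

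U snRNA genes and their neighbours made up the first group. The 3 annotated snRNA genes among the members were U1.5, U4.2 and U2.3. U1.5 (AT1G08115) had 1664320.0 and 1184010.0 FPKM in dbr1-2 and 940322 and 978765 in Col-0 with RNase R, against 73178 and 38171 FPKM in dbr1-2 and 66999.9 and 31052 in Col-0 without it. It was the highest of the 44 in every library, and each value with RNase R lay above each value without it. U4.2 (AT3G06900, chr3:2178191-2178343, minus strand) had 3069 and 2208 FPKM in dbr1-2 and 1479.8 and 1543 in Col-0 with RNase R, against 104 and 39.7 FPKM in dbr1-2 and 111 and 38.2 in Col-0 without it. U2.3 (AT3G57765, chr3:21397262-21398132, minus strand) had 333 and 118 FPKM in dbr1-2 and 305 and 330.1 in Col-0 with RNase R, against 11.7 and 19.5 FPKM in dbr1-2 and 17.3 and 21.9 in Col-0 without it. In U2.3 the libraries of dbr1-2 with RNase R lay further apart than in the other 2 genes. The mature RNAs of U1.5 and U4.2, of 165 and 153 nt, are shorter than the length that seems to have been taken off each transcript in the deposited values. The FPKM of U1.5 thus cannot be read as reads per length, and its order of level against longer genes is uncertain. The same holds for U4.2, and for AT2G11271, AT2G27540 and the snoRNA AT5G13225, annotated at 126, 150 and 83 nt, if the assembled transcript is no longer than the annotated one. The intervals of U4.2, AT2G11271 and AT5G13225 extend beyond the annotated gene.

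The other 6 genes of this group are protein-coding, and the U snRNA gene lies inside or beside them. AT4G23420, a predicted NAD(P)-binding protein, has U1.2 (chr4:12225622-12225786) in an exon on its own strand, outside the coding part, and had 4038 and 3141 FPKM in dbr1-2 and 2026 and 2061 in Col-0 with RNase R, against 114 and 54.8 FPKM in dbr1-2 and 123 and 50.2 in Col-0 without it. AT5G26990, annotated as a drought-responsive family protein, has U4.8 and U1.9 on the opposite strand, 118 and 467 nt beyond its end, and had 862 and 601 FPKM in dbr1-2 and 298 and 293 in Col-0 with RNase R, against 23.9 and 11.7 FPKM in dbr1-2 and 22.9 and 8.52 in Col-0 without it. In both genes every value with RNase R was over 10 times every value without it in the same genotype. AT1G11880, a predicted hexosyltransferase, has U1.10 and U4.6 on its own strand 309 and 685 nt beyond the annotated gene and reached 70.3 and 47.6 FPKM in dbr1-2 and 40.5 and 42.5 in Col-0 with RNase R. MIM, which encodes a protein related to the SMC ATPases of DNA repair, overlapped U2.7 by 19 nt and AT3G56830 overlapped U2.4 by 180 nt, both in exons outside the coding part. AT1G16820 holds U2.1 on the opposite strand, 83 nt of it in coding sequence, and its values without RNase R in dbr1-2 were 28.7 FPKM in replicate 1 and 0.213 in replicate 2. Of the members, 20.5% had a U snRNA gene in their interval, as had 42 of the 13286 single-name nuclear loci tested (0.316%). By type, 4 of 7 tested loci with a U1 gene were members, 4 of 17 with U2 and 3 of 7 with U4. None of 4 with U5 and none of 6 with U6 was a member. The types overlap, since AT1G11880 and AT5G26990 have both a U1 and a U4 gene and count under each. Some non-members in these counts are neighbours in the same interval, such as AT1G16810 beside U2.1, whose enrichment was −1.94 in dbr1-2 and −2.56 in Col-0. Others are snRNA genes enriched in 1 genotype, such as AT3G56705 (U2.6), at 3.63 in dbr1-2 and 1.07 in Col-0. The sources used here do not say whether reads were counted by strand, so reads of a gene and of its antisense or overlapping partner cannot be told apart.

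Replicate 1 stood above replicate 2 in 8 of the 9 U snRNA-bearing genes without RNase R, in dbr1-2 as in Col-0. Without RNase R the median ratio of replicate 1 to replicate 2 was 1.92 in dbr1-2 and 2.08 in Col-0, against 1.03 and 0.992 over all loci tested. Among the 7SL-like genes it was 0.951 in dbr1-2 and 0.864 in Col-0. The sequencing tags of replicate 1 are of an earlier year than those of replicate 2 in both genotypes without RNase R. In dbr1-2 with RNase R, where both libraries carry tags of the same year, replicate 1 was also above replicate 2 in 8 of the 9, with a median ratio of 1.43, against 1.10 over all loci tested. The tag of that replicate 1 names removal of ribosomal RNA only, whereas that of replicate 2 also names mRNA. The part of year or removal in these ratios was not tested.

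The 7SL-like group held AT1G15405, AT2G31141, RR3, BXL3, AT1G49700 and AT7SL-1. AT2G31141 (chr2:13271726-13272534, minus strand), whose predicted protein is uncharacterized, had 39868 and 54476 FPKM in dbr1-2 and 47861 and 49153 in Col-0 with RNase R, against 1098 and 1107 FPKM in dbr1-2 and 771 and 833 in Col-0 without it. Its enrichment of 5.42 in dbr1-2 and 5.92 in Col-0 included the highest of the 44 in Col-0, and the 7SL-like stretch makes up 289 nt of its exons. RR3 (AT2G41310, chr2:17221840-17224880, plus strand), a response regulator of cytokinin signalling, had 21528 and 24269 FPKM in dbr1-2 and 34155 and 34808 in Col-0 with RNase R, against 670.4 and 804 FPKM in dbr1-2 and 520.4 and 718 in Col-0 without it. Its stretch of 214 nt lies in exon sequence outside the coding part, on the gene's strand. BXL3 (AT5G09730, chr5:3014894-3018342, minus strand), a beta-xylosidase that trims cell wall xylan, had 2107 and 2393 FPKM in dbr1-2 and 3877 and 3948 in Col-0 with RNase R, against 71.7 and 81.9 FPKM in dbr1-2 and 60.8 and 81.8 in Col-0 without it. All 295 nt of its stretch lie in exon sequence outside the coding part and on the strand opposite the gene. In these 3 genes the libraries with and without RNase R were separated by well over 10-fold, and Col-0 lay above dbr1-2 with RNase R in RR3 and BXL3.

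AT7SL-1 (AT4G02970, chr4:1317499-1319179, annotated on the plus strand) had 658 and 821 FPKM in dbr1-2 and 202 and 234 in Col-0 with RNase R, against 34.7 and 35.1 FPKM in dbr1-2 and 14.7 and 14.6 in Col-0 without it. The stretch similar to AT1G15405 is on its minus strand, and 98 of its 289 nt are exonic. AT1G49700 (chr1:18388792-18390523, minus strand), a plant protein of unknown function, had 109.9 and 129 FPKM in dbr1-2 and 49.7 and 53.2 in Col-0 with RNase R, against 2.81 and 2.72 FPKM in dbr1-2 and 1.20 and 1.12 in Col-0 without it. Its match of 60 nt to AT1G15405 was the shortest and lay in coding sequence, but its interval also matched that of RR3, at 85.5% of 282 aligned nt. AT7SL-1 and AT1G49700 were both higher in dbr1-2 than in Col-0 in all libraries, with and without RNase R. AT1G15405 itself had 15672 and 17172 FPKM in dbr1-2 and 17489 and 21796 in Col-0 without RNase R. The name AT4G03360 occurs more than once in the table, so the rule leaves its loci out. One of them was enriched like the members, at 5.12 in dbr1-2 and 5.71 in Col-0, with 61613 and 68108 FPKM in dbr1-2 and 80417 and 82860.3 in Col-0 with RNase R. Another was enriched in dbr1-2 alone (4.45, against −1.04 in Col-0) and had 23340.4 and 27141 FPKM in dbr1-2 and 111 and 111 in Col-0 with RNase R, against 934 and 1376 FPKM in dbr1-2 and 87.5 and 371 in Col-0 without it. A further copy, AT5G36275, identical to AT1G15405 at 92.8% of 291 aligned nt, was at most 0.0741 FPKM in any library.

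**Figure D2:**
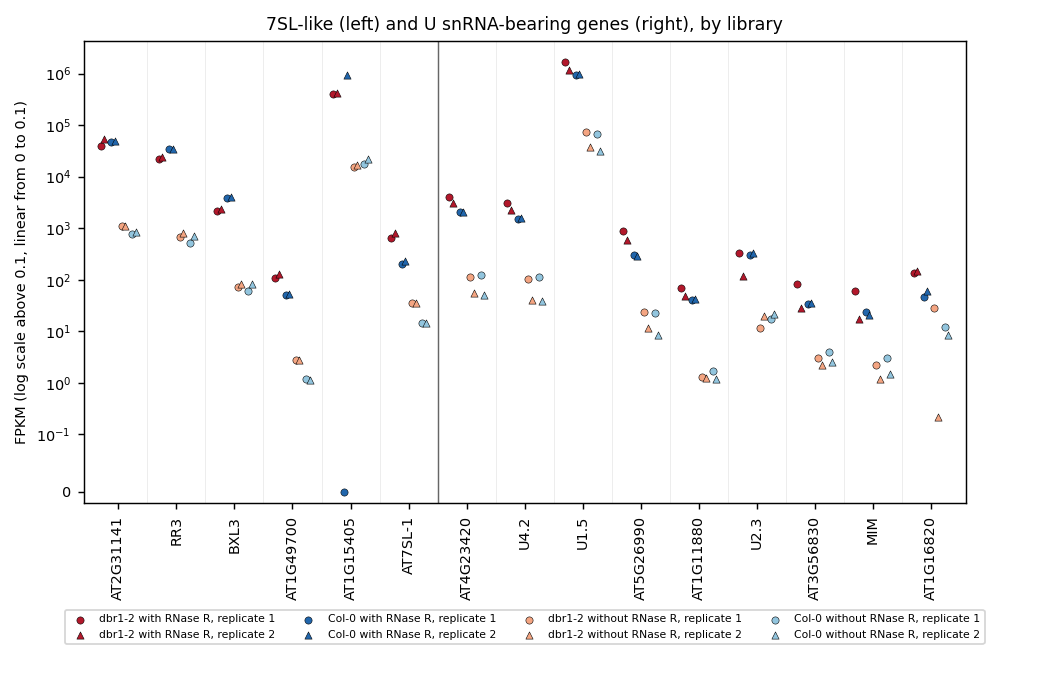
FPKM of the 6 7SL-like genes (left) and the 9 U snRNA-bearing genes (right) in each of the 8 libraries, on an axis that is logarithmic above 0.1 FPKM and linear from 0 to 0.1; circles are replicate 1 and triangles replicate 2. The libraries with RNase R lie above those without it for each gene except for the single 0 of AT1G15405.

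Among the remaining 29, some loci appeared to lie on the strand opposite the gene named. The strand of a locus is not given in the table, but the numbering of loci follows the order of genes on the plus and then on the minus strand of each chromosome. By that numbering, 7 members lay on the strand opposite the gene whose name they carry (15.9% of members), against 17 of the single-name loci tested (0.128%), the members included. They were GCT, EMB2769, AT1G30960, AT1G73470, BSM, AT4G24820 and AT3G51140, all protein-coding genes with introns, and all 7 shared their interval with at least 1 further locus. They are called opposite-strand genes below, as far as the numbering is right. Whether reads of the mRNA contributed to these values was not tested.

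GCT (AT1G55325, chr1:20637333-20648434, plus strand) encodes a subunit of the kinase module of Mediator, the complex that links transcription factors to RNA polymerase. The locus of that name on the other strand had 172 and 171 FPKM in dbr1-2 and 6.39 and 5.41 in Col-0 with RNase R, against 4.36 and 2.86 FPKM in dbr1-2 and 0.501 and 0.331 in Col-0 without it. Its dbr1-2 libraries with RNase R lay more than 20 times above the Col-0 ones, and its enrichment was 5.22 in dbr1-2 and 2.28 in Col-0. A second locus of the interval, named after AT1G55310 and AT1G55325 together, had 17.0 and 15.1 FPKM in dbr1-2 and 6.32 and 6.98 in Col-0 with RNase R, against 8.21 and 8.64 FPKM in dbr1-2 and 5.71 and 6.66 in Col-0 without it. EMB2769 (AT3G13200, chr3:4242100-4244173, plus strand) encodes a protein of the Cwc15 family, which belongs to the spliceosome in yeast, and its locus had 52.3 and 64.9 FPKM in dbr1-2 and 8.49 and 6.39 in Col-0 with RNase R, against 1.41 and 0.997 FPKM in dbr1-2 and 0.518 and 0.550 in Col-0 without it. AT3G51140 (chr3:18997600-18999904, plus strand), a DnaJ-related protein, had 298 and 306 FPKM in dbr1-2 and 44.3 and 58.4 in Col-0 with RNase R, against 4.71 and 7.20 FPKM in dbr1-2 and 0.903 and 1.01 in Col-0 without it and was the most enriched of the 7 opposite-strand genes in both genotypes, at 5.45 in dbr1-2 and 4.74 in Col-0. A tRNA gene, AT3G51135, lies in its interval and was itself listed at 0 in all libraries.

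AT1G73470, of unknown product, reached 128 and 92 FPKM in dbr1-2, against 19.6 and 8.63 in Col-0 with RNase R. AT4G24820, named after the Rpn7 subunit of the proteasome lid, reached 34.6 and 39.5 FPKM in dbr1-2, against 15.3 and 12 in Col-0. AT1G30960, named after a GTP-binding protein and with a snoRNA gene in its interval, reached 39.5 and 23.5 FPKM in dbr1-2, against 7.31 and 9.71 in Col-0. In these 3 the genotypes did not overlap with RNase R, dbr1-2 being higher. BSM, named after a mitochondrial transcription termination factor-like protein of plastids, had 28.9 and 13.3 FPKM in dbr1-2, against 15.2 and 22.6 in Col-0, and here the genotypes overlapped.

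The other 22 genes lay on the strand of the gene named. ARPC1A (AT2G30910, chr2:13152789-13157107, plus strand) encodes a subunit of the Arp2/3 complex, which nucleates branched actin filaments, and had 280.1 and 215 FPKM in dbr1-2 and 20.3 and 35.4 in Col-0 with RNase R, against 9.32 and 9.88 FPKM in dbr1-2 and 1.01 and 1.81 in Col-0 without it. VCL1 (AT2G38020, chr2:15909908-15914711, minus strand), a homologue of yeast Vps16 needed for vacuoles to form, had 249 and 212 FPKM in dbr1-2 and 39.4 and 46.6 in Col-0 with RNase R, against 8.65 and 6.33 FPKM in dbr1-2 and 3.70 and 4.65 in Col-0 without it. DRD1 (AT2G16390, chr2:7097280-7101351, plus strand), a chromatin remodeller of RNA-directed DNA methylation, had 47.9 and 40.0 FPKM in dbr1-2 and 15.0 and 15.3 in Col-0 with RNase R, against 3.39 and 2.56 FPKM in dbr1-2 and 1.14 and 1.40 in Col-0 without it. In each of these 3 genes the order of the groups was the same, dbr1-2 above Col-0 both with and without RNase R. With RNase R, 4 more genes with introns ranged from 30.6 to 79.5 FPKM. They were AE7, which acts in cytosolic iron-sulfur cluster assembly, the DnaJ protein AT4G39960, the armadillo-repeat protein AT5G27970 and AT5G06830 of unknown product, and in each both dbr1-2 libraries lay above both Col-0 libraries. CYCA3;4, an A-type cyclin, had 51.4 and 62.5 FPKM in dbr1-2, against 80.5 and 60.6 in Col-0 with RNase R.

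AT5G59860, a predicted RNA-binding protein, had 64.6 and 66.8 FPKM in dbr1-2, against 69.9 and 73.7 in Col-0 with RNase R, and AT5G59850, which shares its interval, had 12 and 12.4 FPKM in dbr1-2 and 15.1 and 12.6 in Col-0 with RNase R, against 39.3 and 33.8 FPKM in dbr1-2 and 42.3 and 36.5 in Col-0 without it. Of this pair only the member stood higher with RNase R. PRMT4B, an arginine methyltransferase, had 31.5 and 12.7 FPKM in dbr1-2, against 22.0 and 12.3 in Col-0 with RNase R. The calcium-binding protein AT5G04170 had 40.3 and 31.8 FPKM in dbr1-2, against 31.8 and 29.5 in Col-0, and the HSP20-like chaperone AT2G27140 had 7.48 and 10.7 FPKM in dbr1-2, against 8.28 and 9.77 in Col-0. In these the genotypes overlapped with RNase R or differed by less than 1.5-fold in their means.

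Non-coding and single-exon genes, with the protein-coding, intron-containing AT1G32570, are described last. AT1G04425 (chr1:1194187-1196889, plus strand), annotated as other RNA with an intron of 1161 nt, had 24.3 and 21.9 FPKM in dbr1-2 and 5.93 and 5.94 in Col-0 with RNase R, against 0.942 and 0.949 FPKM in dbr1-2 and 0.619 and 0.592 in Col-0 without it. AT5G44562, a long non-coding RNA, had 7.0 and 4.83 FPKM in dbr1-2 and 7.71 and 9.18 in Col-0 with RNase R, against 0.435 and 0.362 FPKM in dbr1-2 and 0.446 and 0.414 in Col-0 without it. The snoRNA AT5G13225 had 6.18 and 7.46 FPKM in dbr1-2 and 7.60 and 10.1 in Col-0 with RNase R, against 0.819 and 0.725 FPKM in dbr1-2 and 1.07 and 0.435 in Col-0 without it. All 3 were near or below 1 FPKM without RNase R, and AT1G04425 alone differed clearly between genotypes. AT4G24410, in whose interval the microRNA gene MIR824 lies, reached 6.72 and 3.11 FPKM in dbr1-2, against 4.79 and 5.18 in Col-0 with RNase R, and 3.11 FPKM was the lowest value above 0 of any member with RNase R. AT5G11425 reached 20.3 and 16.4 FPKM in dbr1-2, against 10.7 and 6.25 in Col-0. AT2G11271 had 166 and 62.9 FPKM in dbr1-2, against 490.3 and 489 in Col-0 with RNase R, and the locus named AT2G11270, AT2G11280 and AT2G11300 in the same interval had 7.09 and 9.90 FPKM in dbr1-2 and 9.16 and 9.14 in Col-0 with RNase R, against 0.353 and 0.392 FPKM in dbr1-2 and 0.183 and 0.212 in Col-0 without it. AT2G07776 had 41.1 and 38.6 FPKM in dbr1-2 and 35.1 and 34.0 in Col-0 with RNase R, against 7.79 and 8.13 FPKM in dbr1-2 and 6.72 and 8.52 in Col-0 without it, and 883 nt of it are 99.9% identical to the mitochondrial genome, so reads of that genome cannot be told apart from its own. AT1G32570, of unknown product, had 27.1 and 25.6 FPKM in dbr1-2 and 65.2 and 71.4 in Col-0 with RNase R, against 1.65 and 1.47 FPKM in dbr1-2 and 3.60 and 3.01 in Col-0 without it and stood higher in Col-0 in every pair of libraries.

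**Figure D3:**
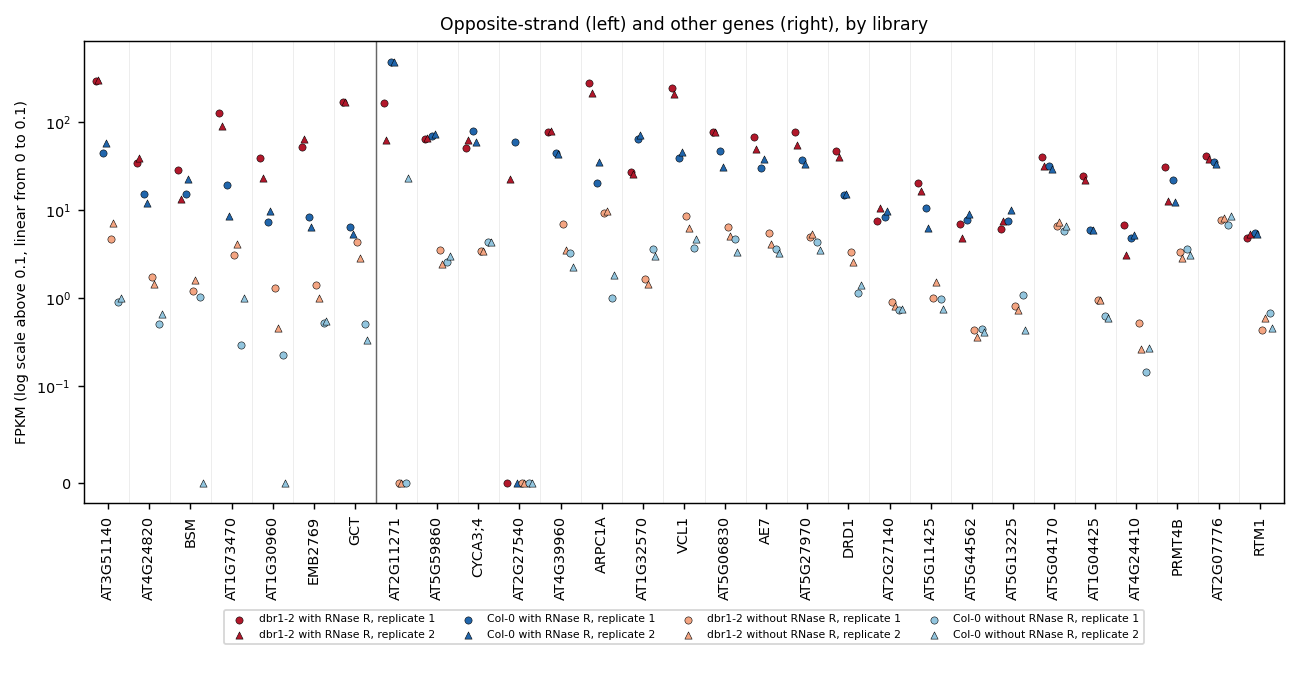
FPKM of the 7 opposite-strand genes (left) and the 22 remaining genes (right) in each of the 8 libraries, on an axis that is logarithmic above 0.1 FPKM and linear from 0 to 0.1; circles are replicate 1 and triangles replicate 2. GCT stands at 172 and 171 FPKM in dbr1-2 and 6.39 and 5.41 in Col-0 with RNase R, and AT2G11271 and AT2G27540 carry most of the values listed at 0.

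The genotypes were compared in a limma fit over all 14351 loci tested, on log2(FPKM + 1), a scale that understates the change of low values. The rule set no direction between genotypes, although the same libraries entered it. With RNase R, 17 of the 44 genes rose in dbr1-2, 3 fell and 24 did not pass an adjusted p of 0.05. Over all loci, 37.0% passed, 29.9% higher and 7.09% lower in dbr1-2, and the 17 rises are 38.6% of the members, a share not far above the background. The median log2 fold change was 0.65 over the members and 0.15 over all loci tested. Differences between the groups of genes, which were made after the values were seen, were not tested. Of the 7 opposite-strand genes 6 rose, with a median of 2.55, of the 7SL-like genes 2 rose and 2 fell, of the other 22 genes 9 rose and 1 fell, and none of the 9 U snRNA-bearing genes passed, with a median of 0.55 and 8 of 9 positive. At an unadjusted p of 0.05 in limma, 2 of these 9 would pass, both higher in dbr1-2. The count of 0 among the U snRNA-bearing genes did not hold in every alternative. It became 1 with the replicate block, where AT5G26990 passed (adjusted p = 0.0119), and 3 in a fit of only the 4 libraries compared. With single libraries left out it was between 0 and 3, all higher in dbr1-2 except U2.3, which passed as lower without dbr1-2 replicate 1 with RNase R (log2 fold change −1.42).

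The locus named GCT rose most (log2 fold change 4.65, SE 0.16, limma adjusted p = 3.3e-06), and ARPC1A (log2 fold change 3.14, SE 0.26, limma adjusted p = 9.39e-05) and AT1G73470 (log2 fold change 2.96, SE 0.36, limma adjusted p = 0.000554) followed. EMB2769 (log2 fold change 2.82, SE 0.16, limma adjusted p = 1.8e-05), AT3G51140 (log2 fold change 2.55, SE 0.18, limma adjusted p = 4.95e-05) and VCL1 (log2 fold change 2.39, SE 0.17, limma adjusted p = 4.11e-05) completed the 6 largest rises. Opposite-strand loci made up 4 of the 6 (GCT, AT1G73470, EMB2769 and AT3G51140). As far as the numbering is right, these 4 values are of the strand opposite the gene named. In all 6 both dbr1-2 libraries lay above both Col-0 libraries, which the rule for naming them required. There were 3 falls, in AT1G32570 (log2 fold change −1.34, SE 0.10, limma adjusted p = 6.73e-05), BXL3 (log2 fold change −0.80, SE 0.16, limma adjusted p = 0.00539) and RR3 (log2 fold change −0.59, SE 0.19, limma adjusted p = 0.0432). Within the 7SL-like group, AT7SL-1 (log2 fold change 1.75, SE 0.13, limma adjusted p = 4.62e-05) and AT1G49700 (log2 fold change 1.19, SE 0.10, limma adjusted p = 9.59e-05) rose, opposite to BXL3 and RR3. Of the U snRNA-bearing genes, AT5G26990 came nearest to the threshold (log2 fold change 1.28, SE 0.45, limma adjusted p = 0.0571), and U1.5 did not pass (log2 fold change 0.55, SE 0.48, limma adjusted p = 0.413).

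With RNase R both dbr1-2 libraries carry tags of the earlier year and both Col-0 libraries tags of the later one. In a fit with the tag year as a covariate, whose effect comes from the libraries without RNase R, 12 of the 20 genes still passed in the same direction, 11 higher and 1 lower, with 5 of the 7 opposite-strand genes among them. Over all loci the calls fell too, to 2423 in that fit, against 5315 without the covariate. BXL3 and RR3 no longer passed there (adjusted p = 0.0738 and 0.417). The sequencing tag of dbr1-2 replicate 1 with RNase R names removal of ribosomal RNA only, whereas the other 7 also name mRNA, and without that library 15 genes rose and 5 fell. The calls of RR3, AT4G39960 and AE7 were lost when single libraries were left out. Quantile normalization gave 12 higher and 7 lower, against 17 and 3 on the deposited scale.

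Without RNase R, 9 of the 44 genes rose in dbr1-2, 1 fell and 34 did not pass, against 17.5% of all loci that passed, 14.2% higher and 3.32% lower. The median log2 fold change was 0.21 over the members and 0.13 over all loci tested. All 9 rises and the fall were of genes that changed in the same direction with RNase R. How often this holds over all loci was not counted, so it cannot be called particular to the members. The fold changes of the 2 comparisons share no library, although the SE of each gene comes from 1 fit of all 8. ARPC1A (log2 fold change 2.15, SE 0.26, limma adjusted p = 0.00182) had 9.32 and 9.88 FPKM in dbr1-2, against 1.01 and 1.81 in Col-0. The opposite-strand locus AT3G51140 (log2 fold change 1.81, SE 0.18, limma adjusted p = 0.000952) had 4.71 and 7.20 FPKM in dbr1-2, against 0.903 and 1.01 in Col-0. The opposite-strand locus named GCT (log2 fold change 1.69, SE 0.16, limma adjusted p = 0.000752) had 4.36 and 2.86 FPKM in dbr1-2, against 0.501 and 0.331 in Col-0. In these 3 genes the genotypes did not overlap, which the rule for naming them required. AT1G73470 also rose (log2 fold change 1.51, SE 0.36, limma adjusted p = 0.0273), as did AT7SL-1 (log2 fold change 1.20, SE 0.13, limma adjusted p = 0.00104), AT1G49700, DRD1, VCL1 and AT4G24820, and AT1G32570 fell (log2 fold change −0.75, SE 0.10, limma adjusted p = 0.00298). Of the opposite-strand genes 4 of 7 rose, with a median of 0.76, and none of the 9 U snRNA-bearing genes passed, at an adjusted or an unadjusted p of 0.05 in limma. With a single library left out that count was at most 1. Median-ratio scaling, under which 1144 loci of the whole table were called, against 2518 on the deposited scale, gave 6 higher and 1 lower, with 2 of the 7 opposite-strand genes among them, and quantile normalization gave 8 higher and 1 lower. The calls of AT1G73470, VCL1, AT4G24820 and DRD1 were lost when single libraries without RNase R were left out. Whether the difference between genotypes with RNase R is larger than that without it was not tested.

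**Figure D4:**
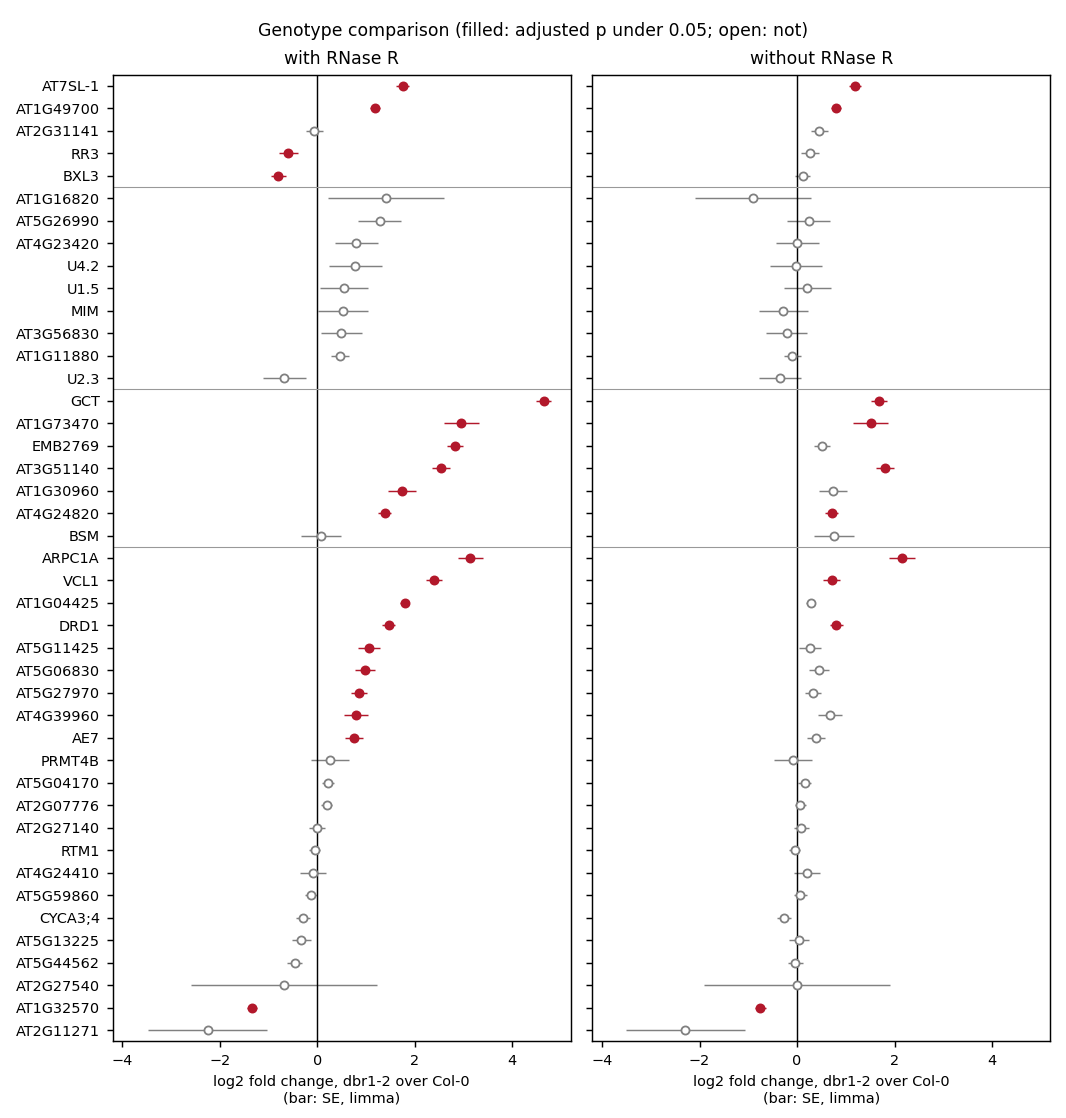
Log2 fold change of dbr1-2 over Col-0 (x axis, bars are the SE of the limma fit) for each gene (rows) with RNase R (left) and without it (right), with filled points for an adjusted p under 0.05. Blocks from the top are 7SL-like, U snRNA-bearing, opposite-strand and other genes, AT1G15405 is not drawn because of its 0, and GCT stands at 4.65 with and 1.69 without RNase R.

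Loci that share an interval with a member were not chosen by the rule, so RNase R against none could be tested in them. Of 29 such loci that passed the filter, 18 fell with RNase R and 8 rose in dbr1-2, where 84.3% of all loci passed, 69.3% falling and 15.0% rising. In Col-0, 19 fell and 4 rose, where 79.3% of all loci passed, 71.0% falling and 8.27% rising. The shares that fell, 62.1% in dbr1-2 and 65.5% in Col-0, were near the background, and the shares that rose, 27.6% in dbr1-2 and 13.8% in Col-0, were above it, a difference that was not tested. These counts changed with the scaling of the whole table. Median-ratio scaling, under which the median of all loci was −0.03 in dbr1-2 and −0.01 in Col-0, against −0.69 and −0.66 on the deposited scale, gave 7 lower and 11 higher in dbr1-2 and 10 lower and 9 higher in Col-0. With organelle, snRNA, snoRNA and ribosomal RNA loci removed, the medians were −2.11 and −1.98, and 24 were lower and 2 higher in dbr1-2 and 25 lower and 1 higher in Col-0. AT1G55330 (AGP21), an arabinogalactan protein gene next to GCT, fell in dbr1-2 (log2 fold change −3.65, SE 0.24, limma adjusted p = 6.79e-06) and in Col-0 (log2 fold change −4.62, SE 0.24, limma adjusted p = 3.39e-06), where 1 library with RNase R was listed at 0. AT5G59850 fell in both dbr1-2 (log2 fold change −1.50, SE 0.12, limma adjusted p = 1.86e-05) and Col-0 (log2 fold change −1.45, SE 0.12, limma adjusted p = 2.69e-05). A locus named after both AT1G55310 and AT1G55325 rose in dbr1-2 (log2 fold change 0.85, SE 0.11, limma adjusted p = 0.000151) but did not pass in Col-0 (log2 fold change 0.09, SE 0.11, limma adjusted p = 0.448), and the difference was not tested.

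Other properties of the annotation differed less. Of the members 63.6% shared their interval with another locus, against 26.1% of the single-name nuclear loci tested. An intron was annotated in 77.3% of members, against 88.6% of those loci. Among protein-coding genes the median number of introns was 5 in members and 4 in all those tested, and the median length of the longest intron was 363 nt in members and 346 nt in all. The exons of members summed to a median of 1506.5 nt, against 1808 nt, and their median GC content was 38.9%, against 38.7%. The largest number of introns in a member was 45, in AT5G27970.

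Over the series, the FPKM of a library summed to between 2796449 and 4003096 with RNase R and between 295494 and 384482 without it. FPKM gives no read counts, but low values came in steps, from which 1 read on 1 kb of reduced length was worth 0.0757 to 0.110 FPKM with RNase R and 0.0106 to 0.0129 without it. DBR1 (AT4G31770) had 0.265 and 0.260 FPKM in dbr1-2 and 0.202 and 0.188 in Col-0 with RNase R, and 0.339 and 0.430 in dbr1-2 and 0.662 and 0.694 in Col-0 without it, all below the filter, and neither this gene nor the lariat turnover genes ILP1, NTR1 and CUV was a member. The 6 genes listed for the microRNA pathway held no member either. All 7 floral organ identity genes listed as inflorescence markers were detected, and the root hair genes RHD6 and EXPA7 were at or near 0. With RNase R, 4 of the 7 were lower in dbr1-2, AP1 most (log2 fold change −0.87), and PI was higher (0.90), all past the threshold. Without RNase R, AP1 (−0.41) and SEP3 (−0.45) were lower and SEP1 was higher (0.58), also past it. The 4 mature pollen markers summed to 3.07 to 4.70 FPKM in dbr1-2 and 7.76 to 8.15 in Col-0 with RNase R, and to 5.05 to 5.63 in dbr1-2 and 16.4 to 17.6 in Col-0 without it. Of 4 green tissue markers, RCA (log2 fold change 1.19 with RNase R and 1.34 without) and CA1 (1.75 with and 1.67 without) were higher in dbr1-2 and CAB1 was lower (−0.65 with and −0.43 without), all past the threshold, and RBCS1A did not pass in either comparison. The summed level of these 4 was 609 to 806 FPKM in dbr1-2 and 753 to 754 in Col-0 with RNase R, and 1979 to 2060.2 in dbr1-2 and 1454 to 1676 in Col-0 without it. Neither tapetum marker tested, A9 or AMS, passed. The part of these markers in the differences between genotypes was not tested, and in whole inflorescences fewer cells of a type and less RNA per cell cannot be told apart.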

How the data were processed

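Libraries were prepared with a stranded total RNA kit after ribosomal RNA removal and, in 4 of the 8, digestion with RNase R, per the labels' protocols. Depletion of mRNA is listed too in the tag of every library but dbr1-2 with RNase R replicate 1. The submitters' processing notes list the TAIR10 genome, TopHat2 2.0.13, Cufflinks 2.2.1 and Cuffnorm 2.2.1, without settings. The authors deposited 1 FPKM value per locus and library. The sources used here do not say whether fragments were counted by strand.

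Log2(FPKM + 1) was fitted with limma 3.58.1 (R 4.3.3; lmFit, contrasts, and eBayes with trend) for 14351 loci that had 1 FPKM or more in 2 or more of 8 libraries. The fit took all 8 libraries as 4 groups, without covariates, which left 4 residual degrees of freedom. P-values are two-sided and adjusted by Benjamini-Hochberg over all loci tested, with calls at an adjusted p under 0.05. The fit was also run on simulated data with independent normal noise and no effect of year or replicate. That run cannot show how the fit performs where year and genotype coincide. Members and lists were chosen with earlier results of these data known.

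Similar stretches were found with BLAST 2.17.0 (word size 11, E-value at most 1e-08) and aligned with MAFFT 7.526. Coordinates and annotation are of TAIR10.1. After a fixed reduction of transcript length, 99.5% to 100% of the low values used came within 0.05 of whole reads.

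The sequencing tags of the libraries without RNase R give replicate 1 and replicate 2 the same year in both genotypes, and the deviations of same-numbered libraries correlated there (0.303). With RNase R the numbers mark no shared year and the correlation was −0.03. Named genes were the protein-coding members with introns of highest enrichment and level, and the non-coding and single-exon members. Also named were the largest changes between genotypes in each direction and the members and non-members nearest the threshold. Those changes were taken only from called members whose genotypes did not overlap. Other members are named for completeness, after their values were seen. The alternatives tried were no filter, a mean of at least 5 FPKM, pseudocounts of 0.1 and 0.01, median-ratio scaling, quantile normalization, removal of organelle, snRNA, snoRNA and ribosomal RNA loci, the replicate block, a fit of only the 4 libraries compared, eBayes without a trend, the tag year as a covariate and leaving out 1 library at a time. The removal of 7SL-like and U snRNA-bearing loci as well, and the results on loci that share an interval with a member, were added after the data were seen.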

Additional observations from a re-analysis of the deposited data

How the results depend on the processing

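No call between genotypes changed direction under any alternative: of 20 genes called with RNase R, 59 of 396 values lost the call and 2 genes (GCT and EMB2769) kept it throughout, and of 10 called without it, 33 of 198 values lost it and 1 gene (GCT) kept it throughout. With RNase R the 20 calls became 12 with the tag year as a covariate and 3 after removal of organelle, snRNA, snoRNA and ribosomal RNA loci, while those over all loci went to 2423 and 196, against 5315, and the member calls ranged from 18 to 23 with a library left out. In that removal the remaining totals of the Col-0 libraries with RNase R were 228124 and 1170680 FPKM, since AT1G15405 stayed in with 0 and 934126. With 7SL-like and U snRNA-bearing loci removed too, 16 of the 28 members left were called with RNase R and 5 without it. Without RNase R the 10 calls became 1 under the first removal and 16 in a fit of only the 4 libraries compared, while those over all loci went to 1109 and 5847, against 2518, and the member calls ranged from 7 to 13 with a library left out. The replicate block gave 21 calls with RNase R and 10 without, the added call being AT5G26990. Median-ratio scaling moved the median difference between genotypes over all loci to 0.07 with RNase R and 0.01 without it and gave 16 higher and 4 lower, and quantile normalization gave 12 higher and 7 lower. The membership rule gave 101 genes with a pseudocount of 0.1, 102 with median-ratio scaling, 15 after the first removal (57 after the second), and 43 to 46 with a library left out. All 44 genes met it at a pseudocount of 0.1 and under median-ratio scaling. Loci sharing an interval with a member and called lower with RNase R numbered 18 in dbr1-2 and 19 in Col-0. At a mean of at least 5 FPKM, where 5 had a value, both counts were 3. They were 7 and 10 with median-ratio scaling, 8 and 10 with quantile normalization, 24 and 25 after the first removal, and 8 and 9 after the second. With a library left out they ranged from 15 to 18 and from 17 to 19. Apart from the removals, the cause of these shifts was not tested. With RNase R 1 read is worth more FPKM, so low values are less precise there.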
